A study of Homo sapiens with 10 samples.

Results

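The DDX and DHX genes code for the DEAD-box and DEAH-box RNA helicases and their close relatives. All protein-coding genes whose symbol starts with DDX or DHX followed by a digit were taken, whatever their values. The initiation factor eIF4A is a DEAD-box helicase too, but its genes carry other symbols and are outside this set. Of 54 such symbols, 53 matched a gene in the deposited files, 37 DDX and 16 DHX genes of 55889 gene IDs, and DDX52 was not matched. DDX3Y, the Y-linked counterpart of DDX3X, enters every count and median, but its own values are not given.

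The genes were measured in KOPT-K1, an established human T-cell acute lymphoblastic leukaemia line. One group of cells received the solvent DMSO and the other 25 nM silvestrol, a plant-derived inhibitor of eIF4A, and both were taken after 45 minutes. Ribosome footprints, the RNA fragments that ribosomes shield from nuclease, were sequenced in 2 libraries per treatment and total RNA in 3 libraries per treatment. All groups are the same cell line with no genetic change named, and the labels do not call the replicates separate cultures, so a p-value here reflects library-to-library spread alone, part or all of it possibly technical.

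RNA helicases bind RNA and use ATP to open base pairs or to remove bound proteins. DEAD-box members usually open short duplexes locally, while many DEAH-box members move along an RNA strand. Between them they serve nearly every step of an mRNA's life and of ribosome assembly: splicing, export through the nuclear pore, scanning of the 5′ untranslated region (5′ UTR) during initiation, storage and decay, maturation of ribosomal RNA, and the sensing of viral RNA. Most of those measured here act in splicing or ribosome assembly.

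The title of the series concerns RNA G-quadruplexes, folds of several stacked runs of G, so the 5′ UTRs of the helicase genes were searched for such letters. One transcript per gene was used from GENCODE release 29, which is on GRCh38, a different build from that of the deposited values, and it gave a 5′ UTR for 45 of the 46 helicase genes that were tested. Only the sense strand was searched, for 4 runs of at least 3 G with 1 to 7 bases between them, and for the repeat GGCGGCGGCGGC or its other frame CGGCGGCGGCGG. The G-run pattern was found in 1 tested helicase gene (2.22%), DHX30, against 10.9% of 8827 tested protein-coding genes. The repeat was found in 1 tested helicase gene (2.22%), DDX42, against 4.72%. DDX19B, whose RNA was too low to test, also held the G-run pattern. These 3 stretches are shown because they were the only matches, with the runs of G or the repeat in capitals, 5′ to 3′:
DHX30, chr3:47802936-47802960, plus strand, from base 9 of a 407-base 5′ UTR: GGGccGGGtgctGGGGcatcccGGG
DDX19B, chr16:70299075-70299100, plus strand, from base 23 of a 245-base 5′ UTR: GGGGttgaGGGGtacGGGtctgaGGG
DDX42, chr17:63774244-63774258, plus strand, from base 382 of a 601-base 5′ UTR: GGCGGCGGCGGCGGC
Each of the 3 stretches lies within 1 exon. A match describes letters and not a folded structure. The helicase genes had 5′ UTRs of 22 to 969 bases with a median of 147 bases, against a median of 198 bases over protein-coding genes, and a median GC content of 62.6% against 66.0%. The longest, of 969 bases, belonged to DDX3X.

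The deposited values are RPKM, read counts scaled by gene length and by library size, so they can be compared between genes per length, but a loss of translation shared by all genes would not be visible. Depth was estimated at 1.66 to 2.38 M reads per footprint library and 126.6 to 216.7 M reads per RNA library, M standing for mega. All 7 markers of the T lineage were above 1 RPKM in RNA (3.61 to 674 RPKM). All 6 myeloid and all 4 erythroid markers, and the 3 stromal markers matched, were under 1 RPKM. Of 6 B cell markers, CD79A (31.4 RPKM) and CD79B were above it. A mean of at least 1 RPKM in both assays was required for testing, which left 10297 genes, 9017 of them protein-coding. They included 46 of the 53 helicase genes. Per footprint library, the 45 of these given with values had a mean of 23.6 (DHX34) to 3957 (DDX5) estimated reads, with a median of 179.3, and 12 had fewer than 100. The median SD between replicates of a tested helicase gene, on the log2 scale, was 0.112 (DMSO) and 0.0921 (silvestrol) in footprints and 0.0325 and 0.0499 in RNA.

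The helicase genes spanned a wide range of levels in DMSO-treated cells. Mean RNA levels of the tested members ran from 4.67 to 397 RPKM with a median of 25.1 RPKM, against 11.2 RPKM over tested protein-coding genes. Footprint levels ran from 2.54 to 249 RPKM with a median of 13 RPKM, against 7.74 RPKM. DDX5, a coactivator of transcription that also acts in splicing, stood far above the rest, with 397 ± 7.2 RPKM in RNA (SD, n = 3) and 249 ± 9.9 RPKM in footprints (SD, n = 2). It alone took 19.5% to 20.4% of the summed RPKM of all members in the RNA libraries and 19.6% to 23.3% in the footprint libraries. Next in RNA came DDX39A, a nuclear mRNA export helicase, with 132 ± 3.6 RPKM, and DHX9, which opens long double-stranded RNA, with 130 ± 3.5 RPKM (SD, n = 3 each). These neighbours did not differ beyond their spread. DDX21, a nucleolar helicase that acts in transcription and processing of ribosomal RNA, followed DDX39A (117 ± 6.4 RPKM) in footprints with 88.8 ± 4.6 RPKM (SD, n = 2 each). At the other end, DHX57, whose role is less well defined, had the lowest RNA of the tested members, 4.67 ± 0.16 RPKM (SD, n = 3), close to DDX60 at 4.84 RPKM and DDX60L at 4.95 RPKM, a pair related to antiviral RNA sensing. The lowest footprint levels were those of DHX34 (2.54 ± 0.64 RPKM), DDX10 (2.80 ± 0.035 RPKM) and DDX60L (2.94 ± 0.16 RPKM; SD, n = 2 each). Across the 46 tested members, RNA and footprint levels in DMSO were ranked alike, with a Spearman rho of 0.91 against 0.87 over protein-coding genes. The points share their libraries and gene lengths.

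**Figure D1:**
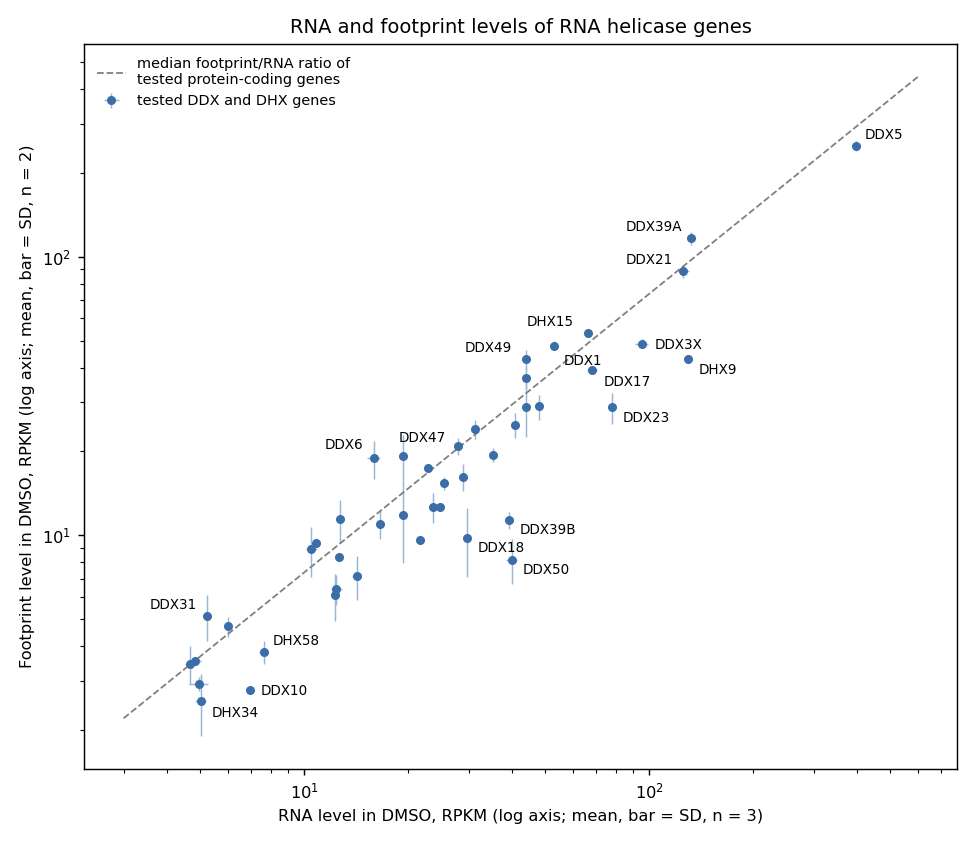
Mean RNA level (horizontal, RPKM, log axis, bar = SD of 3 libraries) and mean footprint level (vertical, RPKM, log axis, bar = SD of 2 libraries) of the 45 tested DDX and DHX genes given with values in DMSO, with a dashed line at the median ratio of tested protein-coding genes. DDX5 stands at the top right, DDX6 lies above the line, and DDX50, DDX39B, DDX18, DDX23 and DHX9 lie below it.

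Footprints per RNA, here called translational efficiency, differed widely among helicase genes that were equally abundant in RNA. It is given as log2 of footprint over mean RNA level, each with 0.5 RPKM added. In DMSO the member median was -0.69, in a range of -2.23 to 0.23, against -0.44 over protein-coding genes, whose middle 50% ran from -0.92 to 0.01. Of the 46 members, 29 (63.0%) lay below the protein-coding median.

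DDX50 had the lowest ratio, -2.41 and -2.05 in the 2 DMSO footprint libraries, lower than all but 3.14% of protein-coding genes. DDX39B, which acts in spliceosome assembly and mRNA export, followed with -1.68 and -1.81, then DHX9 with -1.58 in both. DDX18, a nucleolar helicase, had -1.31 and -1.85, so its libraries differed more. Highest was DDX6, which represses translation and promotes mRNA decay in cytoplasmic granules, with 0.39 and 0.08, above 84.5% of protein-coding genes. The ribosome assembly helicases DDX47 (0.17 and -0.20), DDX31 (-0.21 and 0.14) and DDX49 (0.04 and -0.12) came next, and their ranges overlap.

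The order of these ratios was much the same after silvestrol, with a Spearman rho of 0.89 between treatments over members and 0.87 over protein-coding genes, as a description. The silvestrol ratios had a member median of -0.81 against -0.53 over protein-coding genes, and 28 of 46 members (60.9%) lay below the latter. RPKM counts reads over the whole gene, while footprints fall mainly on its coding part. Over members the coding share of the exon length and the DMSO ratio had a Spearman rho of 0.04 (n = 46), and over protein-coding genes -0.02 (n = 8939). The share was the coding length of the chosen transcript over all annotated exons of the gene in GENCODE. It is neither the expressed transcript nor the authors' gene length, so how far the coding part affects the ratios was not tested.

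**Figure D2:**
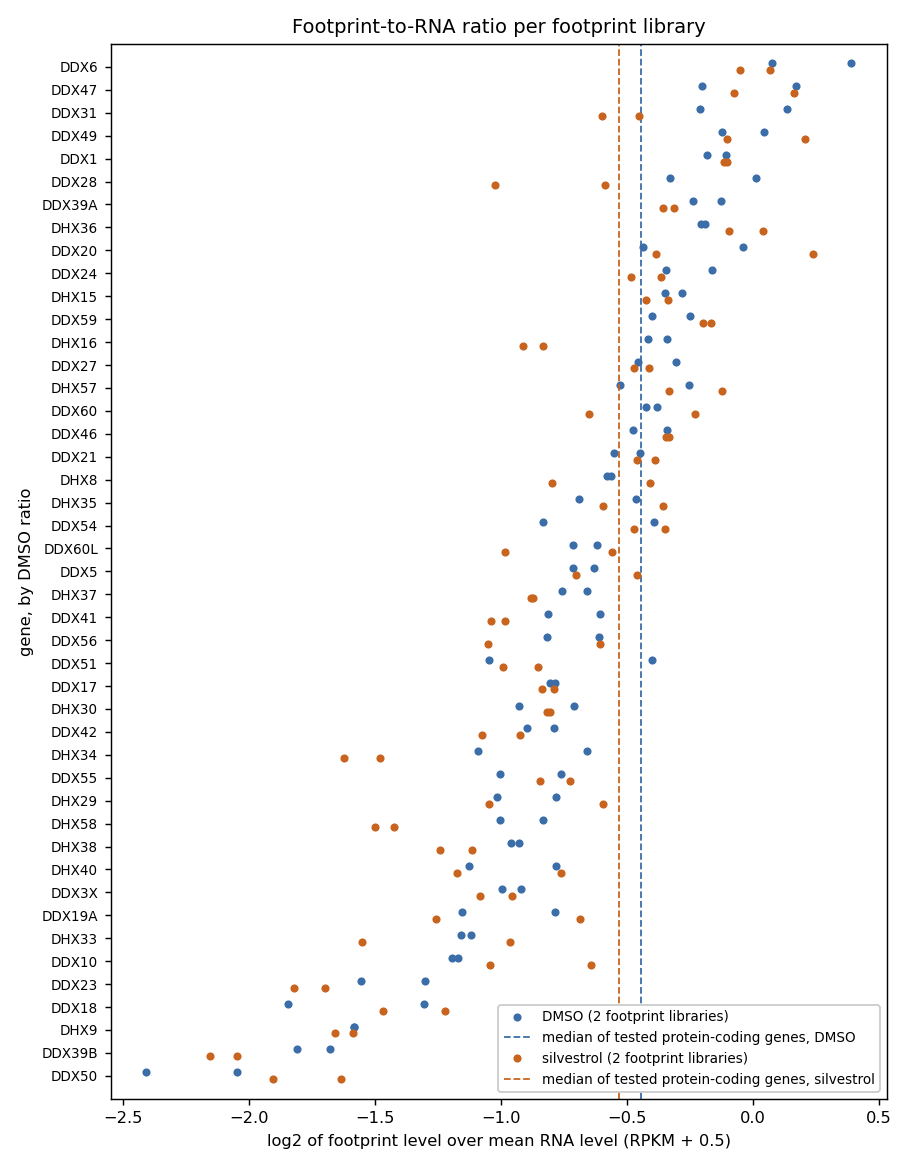
Log2 of footprint level over mean RNA level, 0.5 RPKM added to each, for each of the 45 tested DDX and DHX genes given with values in each of the 2 DMSO (blue) and 2 silvestrol (orange) footprint libraries. Dashed lines are the medians of tested protein-coding genes. DDX6 is at the top with 0.39 and 0.08 in DMSO and DDX50 at the bottom with -2.41 and -2.05.

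Related pairs showed how far footprints and RNA can part. DDX39A and DDX39B are closely similar in protein sequence. DDX39A stood 3.17 to 3.47 times above DDX39B on the RPKM scale in the 6 RNA libraries but 10.2 to 12.1 times above it in the 4 footprint libraries. DDX21 and its neighbour and paralog DDX50 likewise had an RPKM ratio of 3.06 to 3.25 in RNA and of 7.35 to 12 in footprints. DDX5 stood 5.58 to 5.94 times above its paralog DDX17, with which it acts in transcription and splicing, in RNA and 6.13 to 7.31 times above it in footprints. For these 3 pairs the ranges of the 2 assays did not overlap, by a narrow margin in the last. The ranges did overlap for DDX60 over DDX60L, 0.939 to 1.05 in RNA and 0.926 to 1.83 in footprints. No source used here says how reads that match both copies were counted, so values of near-identical copies are uncertain.

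After 45 minutes of silvestrol, no helicase gene passed the test in RNA, in footprints or in translational efficiency. The changes are log2 differences, silvestrol minus DMSO, on log2(RPKM + 0.5), a scale that understates the change of low genes. In RNA, limma called 0 of the 46 members against 29 of 10297 genes (0.282%; 0.00971% lower and 0.272% higher), and 3 members had an unadjusted p under 0.05. In footprints it called 0 against 5 genes (0.0486%; 0.0291% lower and 0.0194% higher), with 1 member under an unadjusted 0.05. In translational efficiency, the difference between the footprint and the RNA change, it called 0 against 11 genes (0.107%; 0.0874% lower and 0.0194% higher), with 2 members under an unadjusted 0.05. These are 6.52% of members beside 9.23% of all genes in RNA, 2.17% beside 6.98% in footprints, and 4.35% beside 7.38% in translational efficiency, gaps of a few genes that were not tested.

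Member medians were 0.00 in RNA, -0.02 in footprints and -0.04 in translational efficiency, against 0.00, -0.07 and -0.08 over all tested genes. For translational efficiency, 27 of 46 members lay below 0, beside 59.9% of all genes. With libraries scaled to the same median over tested genes, which shifts all genes alike, the member medians became 0.028 in footprints and 0.029 in translational efficiency and the all-gene medians -0.021 and -0.013.

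The assays differ in what they could show. In RNA the 95% interval of a change reached a median of 0.0767 to either side of the estimate, and all 45 intervals lay within 1 log2 unit of 0. For translational efficiency that median was 0.52. There 40 of 45 intervals lay within 1 log2 unit. Those of DHX34, DDX28, DHX58 and DDX31 reached past -1 and that of DDX50 just past 1.

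The translational efficiency test gave each assay its own spread, since footprints varied more than RNA. With 1 spread for both assays it called 545 of 10297 genes (5.29%; 3.99% lower and 1.3% higher) and 2 of the 46 members (4.35%), DHX16 with an adjusted p of 0.0167 and DHX58 with 0.0421, both with lower values after silvestrol. Over all alternatives the adjusted p of DHX16 ran from 0.0167 to 0.967 and that of DHX58 from 0.0421 to 0.999.

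**Figure D3:**
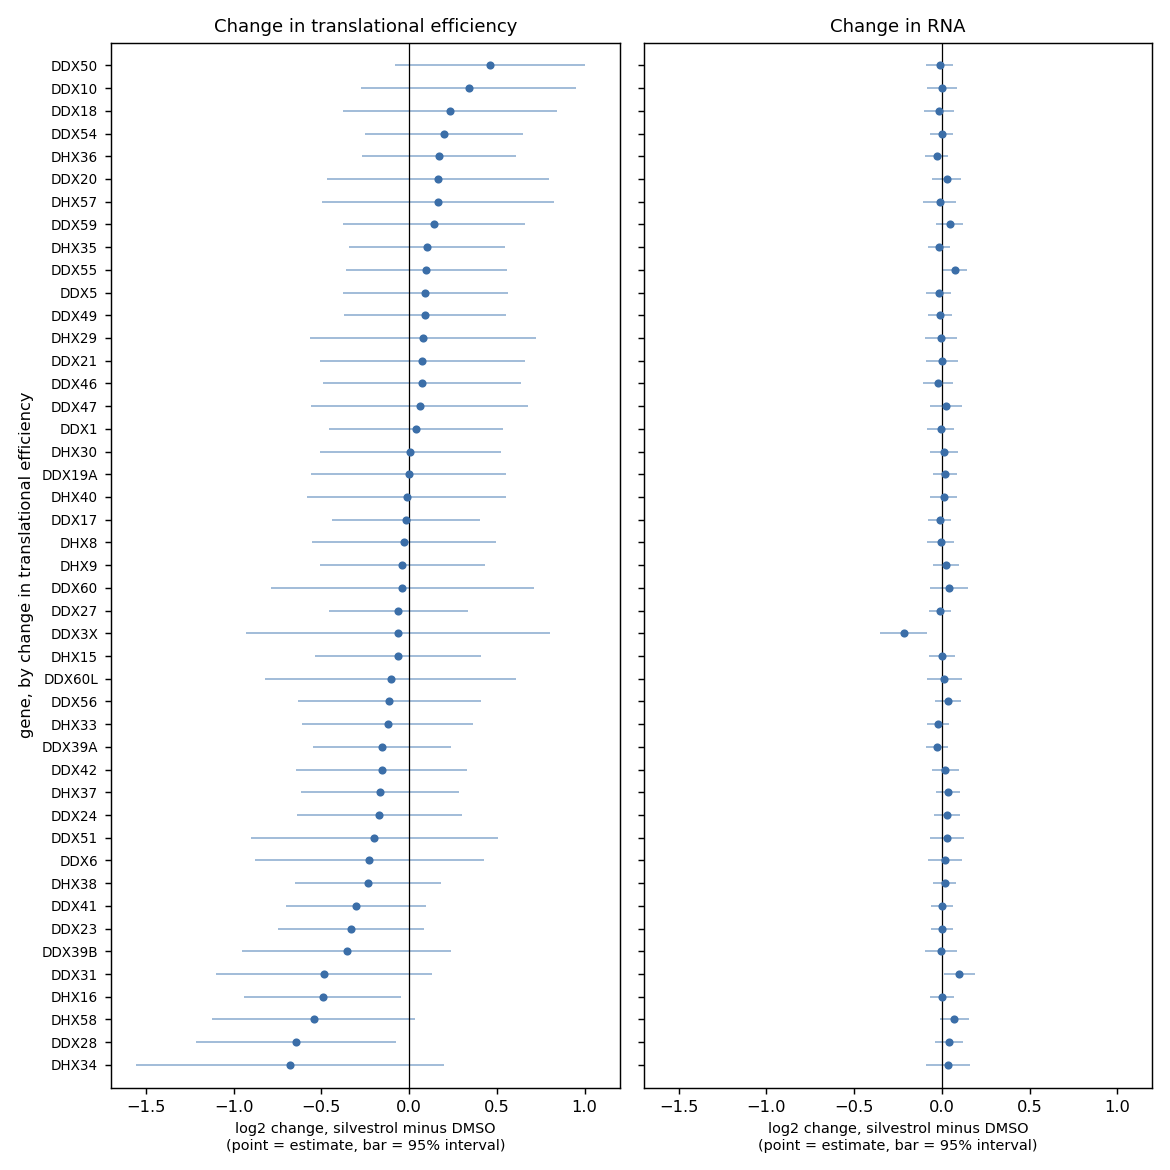
Log2 change, silvestrol minus DMSO, with its 95% interval for each of the 45 tested DDX and DHX genes given with values, in translational efficiency (left) and RNA (right). Intervals on the left cross 0 except those of DDX28 and DHX16, neither called after adjustment, while on the right 44 of 45 estimates lie within 0.1 of 0 and DDX3X stands at -0.22.

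Among helicases of translation and cytoplasmic mRNA, 7 were tested, with 3 estimates of translational efficiency below 0 and 4 above, a median of 0.04, and none called. DDX3X helps ribosomes start on mRNAs with structured leaders. Its RNA was 93.3, 92.5 and 100 RPKM in the DMSO libraries and 74.6, 87.7 and 83.7 RPKM in the silvestrol libraries, so that every silvestrol value was lower. The difference of -0.22 (SE 0.059) was the largest RNA difference of any member in size, but it missed the threshold (adjusted p = 0.226) and ran from -0.27 to -0.15 over the alternative settings, with adjusted p-values of 0.0677 to 0.481. Its footprints were 47.5 and 50.0 RPKM in DMSO and 41.9 and 38.3 RPKM in silvestrol, again lower in both treated libraries, with a difference of -0.28 (SE 0.13, adjusted p = 0.738). The RNA and footprint estimates were thus of similar size, and the estimate for translational efficiency was -0.06 (95% interval -0.93 to 0.80). Its SE there was 0.39, well above the SE of either assay fitted alone. The weights of that test are shared by all genes and widen the interval of a gene with a large RNA spread. The width is thus partly set by the model. Whether reads that match both DDX3X and its Y-linked copy were counted here is not known.

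DHX29 binds the small ribosomal subunit and aids scanning through stable structure. Its footprints were 5.88 and 7 RPKM in DMSO and 8.01 and 5.72 RPKM in silvestrol, so the groups overlapped, and its change in translational efficiency was 0.08 (95% interval -0.57 to 0.72). DHX36 is known for unwinding G-quadruplexes. It gave footprints of 9.43 and 9.33 RPKM in DMSO and 10.9 and 9.90 RPKM in silvestrol. Both treated libraries were higher, while its RNA (10.9, 10.8 and 10.8 RPKM in DMSO; 10.6, 10.7 and 10.5 RPKM in silvestrol) was slightly lower in all treated libraries. The change in translational efficiency of DHX36 was 0.17 (95% interval -0.27 to 0.61, adjusted p = 0.921), or 0.10 without the first silvestrol footprint library, and its RNA change was -0.03.

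DHX9 had footprints of 42.9 and 42.9 RPKM in DMSO and 43.5 and 41.3 RPKM in silvestrol, and a change in translational efficiency of -0.04 (95% interval -0.51 to 0.43). Its groups overlapped. DDX6 had 21.0 and 16.8 RPKM in DMSO and 15.5 and 16.9 RPKM in silvestrol, and a change of -0.23 (95% interval -0.88 to 0.42). Its first DMSO library stood above the other three. DDX1, a member of the tRNA ligase complex that also binds RNA in transport granules, had 46.7 and 49.2 RPKM in DMSO and 49.1 and 48.8 RPKM in silvestrol, with a change of 0.04.

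Splicing helicases numbered 14, all tested, with a median RNA level of 37.2 RPKM in DMSO. Their changes in translational efficiency had a median of -0.11, with 10 below 0 and 4 above, and none passed the test. All genes had a median of -0.08, with 59.9% below 0. DHX16, a DEAH-box helicase that activates the assembled spliceosome, had footprints of 17.9 and 17.0 RPKM in DMSO and 11.9 and 12.6 RPKM in silvestrol. Its treated libraries were close to each other and well below both controls. Its RNA was 23.1, 23.0 and 22.4 RPKM in DMSO and 23.5, 22.7 and 22.3 RPKM in silvestrol, overlapping. The footprint difference of -0.49 (SE 0.17) had the lowest adjusted p of the members in that assay, 0.669, and the change in translational efficiency was -0.49 (95% interval -0.94 to -0.05, adjusted p = 0.619).

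DDX39B, DDX23 and DDX41 also had lower footprints in both treated libraries, without passing the test. For DDX39B they were 11.9 and 10.8 RPKM in DMSO and 9.05 and 8.37 RPKM in silvestrol, a change in translational efficiency of -0.36 (adjusted p = 0.842). For DDX23, a component of the U5 small nuclear ribonucleoprotein, they were 31.4 and 26.2 RPKM in DMSO and 23.7 and 21.7 RPKM in silvestrol, a change of -0.33 (adjusted p = 0.752). DDX41, a spliceosome-associated helicase in which inherited mutations predispose to myeloid neoplasms, had 26.7 and 23.1 RPKM in DMSO and 19.7 and 20.5 RPKM in silvestrol, a change of -0.30 (adjusted p = 0.771). The RNA of these genes overlapped between treatments.

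DDX39A, the abundant paralog, had footprints of 121 and 112 RPKM in DMSO and 104 and 101 RPKM in silvestrol, and a change in translational efficiency of -0.15. DDX42, which carries the GGC repeat shown above and is related to a helicase of the U2 particle, had 20.2 and 18.7 RPKM in DMSO and 18.6 and 16.7 RPKM in silvestrol, with a change of -0.16 (95% interval -0.65 to 0.33). In both genes the treated libraries were lower by a narrow margin.

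DHX38 also had lower footprints in both treated libraries, 12.8 and 12.5 RPKM in DMSO and 11.3 and 10.3 RPKM in silvestrol. Its change in translational efficiency was -0.24 (adjusted p = 0.858). Such a separation was seen in 25.2% of all tested genes. The rest of the group showed overlapping footprints. DHX15, which takes spent spliceosomes apart, had 51.9 and 54.4 RPKM in DMSO and 49.2 and 52.4 RPKM in silvestrol (change in translational efficiency -0.06). DDX46, which acts with the U2 particle at the branch point, had 21.9 and 19.9 RPKM and then 21.5 and 21.7 RPKM (0.07). DDX5 had 242 and 256 RPKM in DMSO and 285 and 241 RPKM in silvestrol. With the most estimated footprint reads of the 45 members given with values, its change was 0.09 (95% interval -0.38 to 0.56). DDX17 had footprints of 39.5 and 38.9 RPKM in DMSO and 39.0 and 37.8 RPKM in silvestrol, a change of -0.02 (95% interval -0.44 to 0.40). DDX20, part of the SMN complex that assembles small nuclear ribonucleoproteins, varied widely within each treatment, with 7.62 and 10.2 RPKM in DMSO and 12.7 and 8.08 RPKM in silvestrol. Its footprint difference of 0.19 became -0.12 without the first silvestrol library and -0.0078 without the first DMSO library.

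Helicases of ribosome assembly formed the largest group, 15 genes, all tested, with a median RNA level of 29.7 RPKM in DMSO. Their changes in translational efficiency were spread about 0, with 7 below and 8 above and a median of 0.06, and none passed the test. The highest estimates of any member given with values came from this group. DDX50 had footprints of 7.11 and 9.26 RPKM in DMSO and 10.2 and 12.4 RPKM in silvestrol. Both treated libraries lay above both controls, while its RNA, 38.5 to 41.2 RPKM in DMSO and 38.5 to 40.9 RPKM in silvestrol, overlapped. The change in translational efficiency of DDX50 was 0.46 (95% interval -0.08 to 1.00, adjusted p = 0.732), and its footprint difference was 0.45 (SE 0.23, adjusted p = 0.738). Without the first DMSO footprint library these were 0.28 and 0.27.

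DDX10, a nucleolar helicase of the small subunit pathway, had 2.82 and 2.77 RPKM in DMSO and 3.13 and 4.30 RPKM in silvestrol, a change in translational efficiency of 0.34 (SE 0.28, adjusted p = 0.864). Its treated libraries were higher, the second by more than the first, and the change was 0.14 without the second. DDX18 had 11.7 and 7.90 RPKM in DMSO and 10.3 and 12.3 RPKM in silvestrol, a change of 0.23 (adjusted p = 0.921). DDX54 had 33.3 and 24.4 RPKM in DMSO and 31.4 and 34.3 RPKM in silvestrol, a change of 0.20 (adjusted p = 0.907). In DDX18 and DDX54 the groups overlapped, and without the second DMSO footprint library their changes were -0.037 and -0.019.

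DDX31 had the lowest change in translational efficiency of the group. Its footprints were 4.46 and 5.81 RPKM in DMSO and 4 and 3.56 RPKM in silvestrol. Its RNA values lay the other way, with 5.19, 5.17 and 5.37 RPKM in DMSO and 5.42, 5.67 and 5.87 RPKM in silvestrol, every treated value being higher. The RNA difference of 0.10 (SE 0.040, adjusted p = 0.466) was the highest of the members, and the change in translational efficiency was -0.49 (95% interval -1.10 to 0.13, adjusted p = 0.753), or -0.31 without the second DMSO footprint library. DDX55, of the large subunit pathway, had RNA of 23.9, 23.9 and 22.9 RPKM in DMSO and 25.3, 24.7 and 24.4 RPKM in silvestrol, a difference of 0.07 (adjusted p = 0.505) with no overlap. DDX21 had footprints of 85.5 and 92.0 RPKM in DMSO and 95.7 and 91.1 RPKM in silvestrol, and a change in translational efficiency of 0.07. DHX33, which promotes transcription of ribosomal RNA, was among the 5 members with the lowest RNA change. Its RNA was 21.7, 21.5 and 22 RPKM in DMSO and 21.6, 21.3 and 21.2 RPKM in silvestrol. The difference was only -0.02 (adjusted p = 0.917), with overlapping groups. DDX24 had footprints of 39.2 and 34.4 RPKM in DMSO and 34.7 and 31.9 RPKM in silvestrol, with overlapping groups. Its change in translational efficiency was -0.17.

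Smaller groups held several of the lowest estimates. DDX28 acts in assembly of the mitochondrial ribosome. Its footprints were 10 and 12.8 RPKM in DMSO and 6.17 and 8.53 RPKM in silvestrol, lower in both treated libraries, and its RNA was 12.9, 12.7 and 12.5 RPKM in DMSO and 13.4, 12.5 and 13.3 RPKM in silvestrol. The change in translational efficiency of DDX28 was -0.65 (95% interval -1.22 to -0.07), with the lowest adjusted p of any member, 0.596. It was -0.43 without the first silvestrol footprint library. DHX30, also of the mitochondrial RNA granule and the carrier of the G-run pattern shown above, had 15 and 17.5 RPKM in DMSO and 16.4 and 16.5 RPKM in silvestrol. The treated values lay between the controls, and the change was 0.01 (95% interval -0.51 to 0.52).

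DHX58, known as LGP2, is a cytoplasmic sensor protein that tunes the detection of viral RNA. It had footprints of 3.56 and 4.07 RPKM in DMSO and 2.52 and 2.69 RPKM in silvestrol, without overlap. Its RNA was 7.51, 7.92 and 7.51 RPKM in DMSO and 7.97, 7.89 and 8.31 RPKM in silvestrol, a difference of 0.07 (adjusted p = 0.651). The change in translational efficiency was -0.54 (95% interval -1.12 to 0.03, adjusted p = 0.692). The other antiviral members did not show this separation: DDX60 had footprints of 3.60 and 3.48 RPKM in DMSO and 4.18 and 2.99 RPKM in silvestrol, and DDX60L 3.05 and 2.82 RPKM and then 2.28 and 3.23 RPKM. The difference between these genes was not tested.

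DHX34 promotes nonsense-mediated decay of mRNA. Its estimated footprint reads were few, a mean of 23.6 per library, near the 25.3 estimated for DHX58. It had footprints of 2.99 and 2.09 RPKM in DMSO and 1.52 and 1.33 RPKM in silvestrol. Its RNA was 4.97, 5.22 and 4.85 RPKM in DMSO and 5.47, 4.65 and 5.34 RPKM in silvestrol. Both treated footprint libraries were lower and its RNA overlapped. Its change in translational efficiency, -0.68 (SE 0.40, 95% interval -1.56 to 0.20, adjusted p = 0.764), was the lowest estimate and the least precise of the 45 members given with values. DDX19A, which releases exported mRNA at the nuclear pore, had 6.94 and 5.27 RPKM in DMSO and 7.58 and 4.93 RPKM in silvestrol, with full overlap. DDX59 had 4.44 and 4.98 RPKM in DMSO and 5.36 and 5.5 RPKM in silvestrol, a footprint difference of 0.19 (adjusted p = 0.869).

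**Figure D4:**
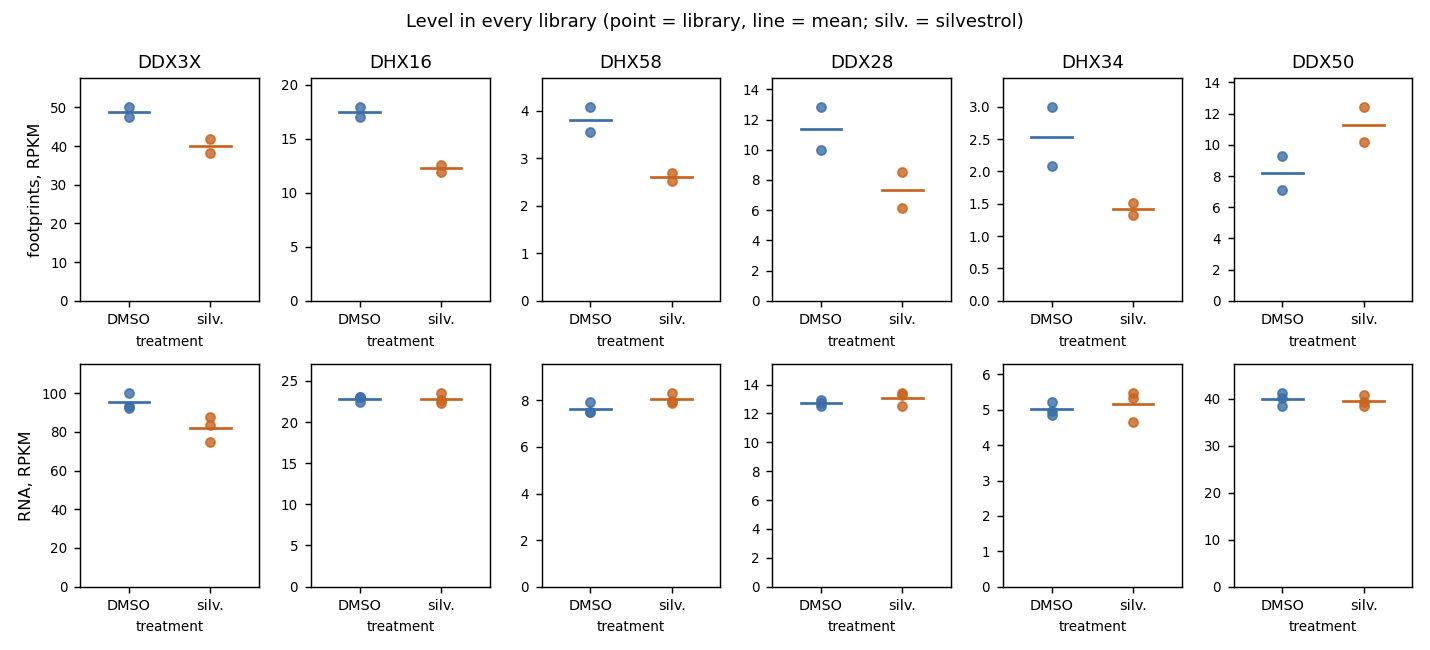
Footprint level (top row, RPKM) and RNA level (bottom row, RPKM) of DDX3X, DHX16, DHX58, DDX28, DHX34 and DDX50 in every DMSO (blue) and silvestrol (orange) library; each point is a library and each line a group mean. The treated footprint points of the first 5 genes lie below the controls and those of DDX50 above, and only DDX3X has separated RNA points; none of these differences passed the test.

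Lack of overlap between 2 and 2 libraries was common in these data. The silvestrol footprint libraries were both below the controls for 13 of 46 members (28.3%), against 25.2% of all tested genes, and both above for 5 members (10.9%), against 13.1%. In RNA, all 3 treated libraries were lower for 2 members (4.35%), DDX3X and DHX36, against 3.99% of genes, and higher for 2 (4.35%), DDX31 and DDX55, against 8.97%. These shares are near the background. Over the 45 members with a 5′ UTR, its length and the change in translational efficiency had a Spearman rho of -0.36, and over protein-coding genes -0.17, as a description of estimates that share their libraries.

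The 7 members that were not tested were low in at least 1 assay. DDX4, DDX43 and DDX53 are germ cell or cancer-testis genes, DDX25 is known from testis, and DHX32 is less well defined. DDX53 was listed at 0 in all libraries, and none of the other 4 reached 0.2 RPKM in any RNA library. DDX19B, a near-identical copy of DDX19A, had RNA of 0.0537 to 0.0775 RPKM but footprints of 1.17 and 0.532 RPKM in DMSO and 2.14 and 0.652 RPKM in silvestrol. DDX19A stood 161 to 225 times above it in RNA but 3.54 to 9.91 times in footprints. DDX11, a DNA helicase of chromosome cohesion, showed the reverse, with RNA of 19.3, 20.0 and 19.6 RPKM in DMSO and footprints of 0.580 and 1.08 RPKM. Entries for its pseudogenes DDX12P and DDX12B had RNA of 16.6 and 14.5 RPKM and footprints of 3.35 and 0.191 RPKM, as means over all libraries. The split of reads between such copies is uncertain in both assays.

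Other genes around these helicases were compared as lists. The 3 eIF4A genes had changes in translational efficiency of -0.11 to 0.20, with 0 called. Other RNA helicases, 15 genes that include the viral RNA sensors RIGI (formerly DDX58) and IFIH1, were all tested, with 7 below 0 and 8 above, a median of 0.05 and 0 called. Of 28 listed protein partners, such as the eIF4G scaffolds and the G-patch activators of DEAH-box helicases, 27 were matched and tested. In translational efficiency 21 partners lay below 0 and 6 above, with a median of -0.14 and a lowest adjusted p of 0.579, and 0 were called. Over all tested genes 59.9% lay below 0, with a median of -0.08. The lists were not tested against this background.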

How the data were processed

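The authors deposited 1 table per library with RPKM values per Ensembl gene ID, per the file headers. The submitters' processing notes list STAR and hg19, with no role or version. The gene lengths and the handling of strand and of reads with several matches are each not given in the sources used here. A gene name table named 49395 IDs and GENCODE release 29 a further 267. GENCODE, on GRCh38, served only for names, gene types, lengths and 5′ UTR sequences.

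Samples were grouped by title. Depth was estimated from the smallest steps of low RPKM values and exon lengths. Between 91.3% and 93.7% of values from genes with 1 transcript, at 0.4 to 5.5 reads, lay within 0.05 of a whole read. The depth was chosen to bring these same values close to whole reads, so the share is not a separate check. Read estimates of genes with several transcripts also rest on GENCODE exon lengths, which may differ from the authors' lengths. No count model was used, because RPKM values are not counts. Values were taken as log2(RPKM + 0.5), as deposited, for genes with a mean of at least 1 RPKM in both assays. Tests used limma 3.58.1 in R 4.3.3 (trend and robust), two-sided, with Benjamini-Hochberg adjustment over all 10297 genes and a threshold of 0.05. RNA and footprint changes used their own libraries. Translational efficiency was the assay by treatment interaction over 10 libraries with weights estimated per assay (0.119 for footprints, 4.12 for RNA). These ratios of spread hold for all genes, so a gene with a large RNA spread gets a wide interval. The script was also run on simulated data with known changes. That run was a check of the code and does not show what the real libraries could detect. Tables and plots used Python 3.11.15, pandas 2.3.3, scipy 1.17.1 and matplotlib 3.10.9.

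The members and lists were chosen with earlier results of these data known. Named with values are the 5 highest and 5 lowest estimates in each change, the 3 highest and 3 lowest DMSO levels, and 20 members picked by role. DDX23, DDX42, DDX47, DDX49 and DHX38 fall outside that rule and were named after their values were seen. Alternatives were other pseudocounts, filters and scaling, a replicate block, 1 spread for both assays, and leaving out each library.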

Additional observations from a re-analysis of the deposited data

How the results depend on the processing

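No member was called in RNA, footprints or translational efficiency under any alternative (pseudocount of 0.1 or 1, no filter, a minimum of 5 RPKM, median scaling, the replicate block, each library left out), except translational efficiency with 1 spread for both assays, which called 2, DHX16 and DHX58. The number of members tested was 50 with no filter and 39 with the higher minimum. Single estimates were compared between settings only for the 5 highest and 5 lowest members of each change. Of those, these changed sign when 1 library was left out: RNA of DDX46 (-0.060 to 0.012), footprints of DDX20 (-0.12 to 0.50), DDX54 (-0.021 to 0.42) and DDX18 (-0.053 to 0.49), and translational efficiency of DDX54 (-0.019 to 0.42) and DDX18 (-0.037 to 0.50). The cause was not tested. Over all genes, the RNA count of 29 became 0 with no filter and 0 to 35 without 1 library. The footprint count of 5 became 2 with a pseudocount of 0.1, with no filter or with the higher minimum, and 0 without 1 library. The translational efficiency count of 11 ran from 8 to 44 without 1 library and was 545 with 1 spread.

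With the replicate number as a block, 0 members were called in each change, and the counts over all genes were 57 in RNA, 1 in footprints and 14 in translational efficiency. Whether equal numbers mark paired libraries is not known. Deviations of libraries with the same number correlated at -0.033 in footprints and at 0.042, -0.327 and 0.150 in RNA. Those with unlike numbers correlated at 0.033 in footprints and at -0.319 to 0.303 in RNA. These correlations cannot decide the question, since deviations from a mean of 2 or 3 libraries are tied to one another. What read depth contributes to the width of the footprint intervals was not tested.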

Other observations

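The files also list 30 pseudogenes named after DDX and DHX genes. Only DDX12P and DDX12B had a mean RNA level of at least 1 RPKM, but 6 had a mean footprint level of at least 1 RPKM. Among these were DHX9P1, with 0.0921 RPKM in RNA but 3.10 RPKM in footprints, and DDX3P3, with 1.6 RPKM in footprints and listed at 0 in RNA. The divergent transcript DHX35-DT had a mean of 2.87 RPKM in footprints and 0.514 RPKM in RNA. Its footprints were uneven, 4.72 and 0 RPKM in DMSO and 6.75 and 0 RPKM in silvestrol. Whether reads of the parent genes were counted in these entries was not tested.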
